A study of Homo sapiens with 29 samples.

Results

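The insulin-like growth factor (IGF) axis was examined as 10 genes chosen by name, with no measured value in the rule: the ligands IGF1 and IGF2, the receptor IGF1R, and the binding protein genes IGFBP1 to IGFBP7. All 10 had a line among the 28266 gene symbols of the count table, and 8 passed the filter on low counts. IGF1 and IGFBP1 did not pass and are described by their counts. The messages were counted by RNA sequencing of IMR90 ER:RAS, human lung fibroblasts of an established line that in all groups carry a retroviral fusion of oncogenic RAS with the ligand-binding domain of the estrogen receptor. The fusion is activated by 4-hydroxytamoxifen (4OHT), and the cells then enter oncogene-induced senescence. DMSO_siNT cells received the solvent and non-targeting siRNA, 4OHT_siNT cells received 4OHT and the same control siRNAs, and 4OHT_siSMARCA4 cells received 4OHT and siRNA against SMARCA4, an ATPase subunit of the SWI/SNF chromatin remodeler. Transfection came a day before induction and RNA was taken on day 7. Each group held 6 libraries, 3 for each of 2 siRNAs numbered 2 and 4, and no group of DMSO cells with SMARCA4 siRNA was analysed here.

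The IGF ligands act through the receptor tyrosine kinase encoded by IGF1R, which signals to growth and survival through insulin receptor substrates and the PI3K-AKT branch. The high-affinity binding proteins, IGFBP1 to IGFBP6, hold the ligands outside the cell, block or prolong their action, and release them when proteases cut them. IGFBP7 is a related secreted protein with low affinity for IGFs. Several IGFBPs are known as secreted products of senescent fibroblasts.

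Sample labels also carry a set number followed by V or VM, letters whose meaning is not stated. The 4OHT_siNT libraries were all VM, and DMSO_siNT was split evenly into 3 V and 3 VM. The knockdown group held 3 V, 2 VM and 1 further library. Its column name carries VM, but its set matched no sample label (unlabelled library below). Total counts ranged from 9657309 to 18039313 per library. SMARCA4 was at 275 to 330 CPM (counts scaled to the effective library size by TMM) in 4OHT_siNT and at 70.4 to 141 CPM in the knockdown. The V knockdown libraries held 92.7 to 141 CPM of SMARCA4, and the VM and unlabelled ones held 70.4 to 87.0 CPM. Library DMSO_siNT 4-2V stood apart, with the lowest depth and 29.5 CPM of ESR1, part of the ER:RAS transgene, against 1034 to 1316 CPM in the other DMSO_siNT libraries, so it goes against its label as ER:RAS cells. It also held the highest IGFBP2, IGFBP4 and IGFBP6 and the lowest IGF2, IGFBP3 and IGFBP7 of its group. Values without it stand beside some of the results that it moves, not all. Each fibroblast marker of 8 passed the filter. Their summed level ran from 11448 to 31306 CPM for DMSO_siNT, from 14920 to 19815 CPM for 4OHT_siNT and from 8627 to 12575 CPM for the knockdown. The markers did not move alike: VIM averaged 6359, 6792 and 6663 CPM, COL1A1 10692, 7053 and 2642 CPM, and DCN 625, 17.4 and 11.01 CPM in that order, and their part in the results was not tested. Of 12 epithelial, endothelial and leukocyte markers 1, VWF, passed, at 1.04 to 4.87 CPM, while the epithelial and leukocyte sums stayed at or below 2.51 and 0.81 CPM, with KRT5 and SFTPC at 0 throughout. In bulk RNA a smaller share of cells with a message and less message per cell cannot be told apart.

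Among the binding protein genes, IGFBP2 and IGFBP5 are neighbors that point toward each other. In GENCODE version 44 on GRCh38, IGFBP2 lies on chromosome 2 from 216632828 to 216664436 on the plus strand and IGFBP5 from 216672105 to 216695549 on the minus strand, 7668 bases apart. Both messages were lower in the knockdown, as described below, so the 250 bases before their annotated starts are shown, from RefSeq on GRCh38.p14, 5′ to 3′ on the strand of the gene. For IGFBP2, 2 of its RefSeq starts are shown, with windows chr2:216632578-216632827 and chr2:216633170-216633419, and IGFBP5 has the window chr2:216695550-216695799. Capitals mark the letters GGGCGG on either strand, a GC box.
IGFBP2, outermost start: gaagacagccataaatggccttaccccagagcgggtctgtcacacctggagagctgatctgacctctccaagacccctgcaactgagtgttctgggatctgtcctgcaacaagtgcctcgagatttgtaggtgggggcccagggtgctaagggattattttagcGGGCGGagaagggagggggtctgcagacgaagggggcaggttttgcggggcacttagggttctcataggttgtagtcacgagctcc
IGFBP2, inner start: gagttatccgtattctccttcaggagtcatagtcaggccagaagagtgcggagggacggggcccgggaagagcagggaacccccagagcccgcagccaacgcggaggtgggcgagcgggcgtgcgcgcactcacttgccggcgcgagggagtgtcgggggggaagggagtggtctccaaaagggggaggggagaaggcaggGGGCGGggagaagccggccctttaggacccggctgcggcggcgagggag
IGFBP5: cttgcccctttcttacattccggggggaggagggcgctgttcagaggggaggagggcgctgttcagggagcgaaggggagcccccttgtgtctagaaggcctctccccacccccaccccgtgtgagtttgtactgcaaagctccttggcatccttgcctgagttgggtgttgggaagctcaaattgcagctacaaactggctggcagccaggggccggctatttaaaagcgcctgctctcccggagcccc

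Each IGFBP2 window shown held 1 GC box, 86 and 49 bases before its start, and the IGFBP5 window held none. A further IGFBP2 window, chr2:216659317-216659566, is not shown and held no GC box. Of 35116 promoter windows of this length, 42.6% held a GC box. The letters TGANTCA of an AP-1 site and TATAAA of a TATA box were searched on both strands. They were in none of the 3 windows shown, against 6.57% and 10.7% of all windows. The windows matched 7 of the 10 genes by symbol, and of those 5 held a GC box, 1 (IGFBP4) a TATA box and none an AP-1 site. A gene was counted if any of its windows held the letters, while the percentages count windows. These matches describe letters only.

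Whether senescence changed the axis was asked by comparing 4OHT_siNT with DMSO_siNT. IGF2 was higher in senescent cells, and IGFBP3, IGFBP6 and IGF1R were lower. IGFBP2, IGFBP4, IGFBP5 and IGFBP7 did not pass the test. In this contrast 52.8% of all 13136 genes tested were called, 23.9% higher and 28.9% lower, against 4 of 8 members, 1 higher and 3 lower, a share close to the background. The median log2 fold change of the 8 members was −0.32, against −0.053 over all genes. Calls rest on an adjusted p below 0.05 from the quasi-likelihood test of edgeR.

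Whether SMARCA4 knockdown changed the axis in senescent cells was asked by comparing 4OHT_siSMARCA4 with 4OHT_siNT. IGF2 was higher again, and IGFBP2 and IGFBP5 were lower. Here 10.6% of all genes were called, 4.99% higher and 5.65% lower, against 3 of the 8 members, 1 higher and 2 lower, and the members' median log2 fold change was −0.34 against 0.010 over all genes. These comparisons share the 4OHT_siNT libraries, and the values of each gene are given side by side below.

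**Figure D1:**
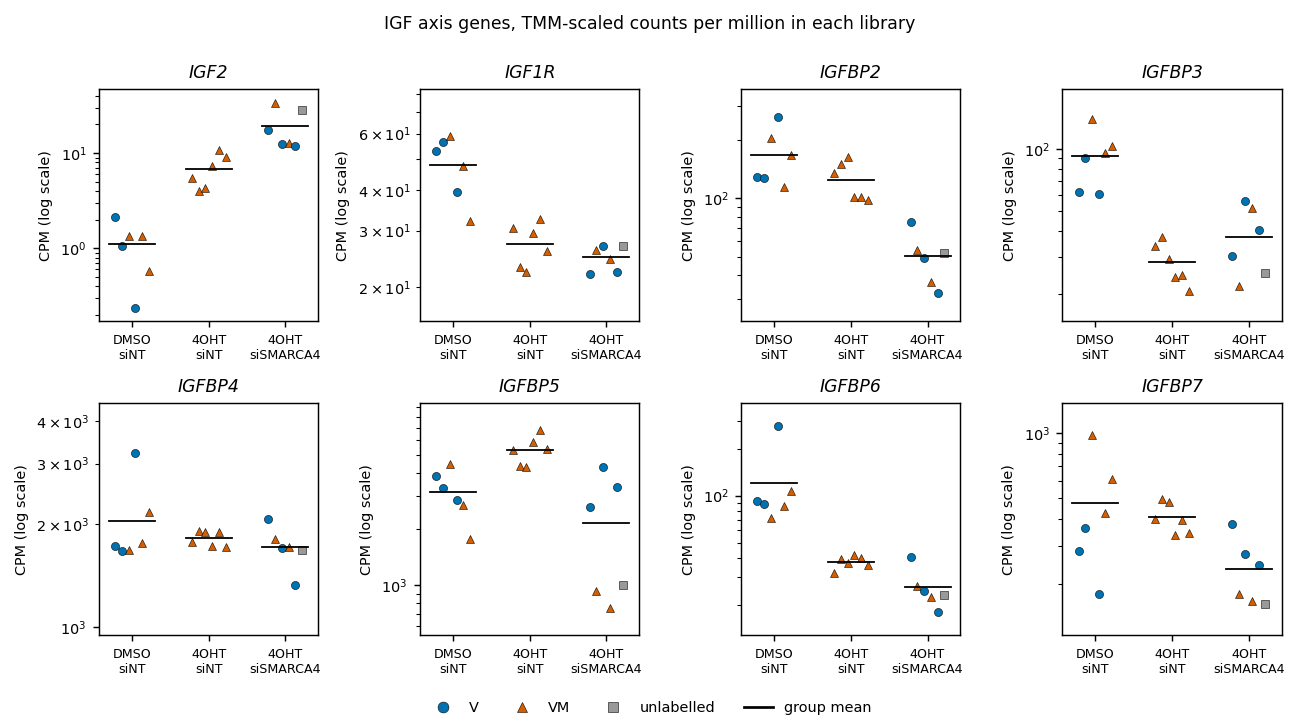
TMM-scaled CPM (log axis) of the 8 IGF axis genes tested, in each library of the 3 groups; symbols give the set letters and lines the group means. IGF2 spans 0.24 to 2.14 CPM in DMSO_siNT and 12.0 to 33.6 CPM in the knockdown, without overlap, and IGFBP5 splits within the knockdown by set letters.

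IGF2, the fetal growth factor, lies on chromosome 11 from 2129112 to 2158391 on the minus strand. It was at a lowest, median and highest level of 0.24, 1.21 and 2.14 CPM in DMSO_siNT, 4.01, 6.37 and 10.8 CPM in 4OHT_siNT, and 12.0, 15.1 and 33.6 CPM in 4OHT_siSMARCA4. No library of any group overlapped another group, although the DMSO_siNT levels rest on 2 to 30 counts. IGF2 rose by 2.54 ± 0.39 (SE) on the log2 scale with 4OHT (edgeR adjusted p = 2.21e-05, and 2.39 ± 0.39 without DMSO_siNT 4-2V) and by a further 1.51 ± 0.33 with SMARCA4 siRNA (adjusted p = 0.00617). Between the knockdown and DMSO_siNT the difference was 4.05 ± 0.40, or 16.6-fold (adjusted p = 5.53e-08).

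The IGF2 levels differed between siRNA numbers, in opposite order in the 4OHT groups. With control siRNA 2 the 4OHT_siNT libraries held 4.01 to 5.46 CPM and with control siRNA 4 they held 7.27 to 10.8 CPM. With SMARCA4 siRNA 2 the libraries held 17.4 to 33.6 CPM and with SMARCA4 siRNA 4 they held 12.0 to 12.8 CPM. Neither difference was called (−0.98, adjusted p = 0.241, and 1.11, adjusted p = 0.382). Between siRNA numbers edgeR called no member in any group, and 0.0512%, 0.0732% and 0.00732% of 13659 genes in DMSO_siNT, 4OHT_siNT and the knockdown. Of 9 members in these fits, 4, 2 and 3 had an unadjusted p under 0.05 in the same order. The number does not tie a control siRNA to a SMARCA4 siRNA. Restricted to number 2 in both arms, the knockdown difference was 2.52. Restricted to number 4, a fit that also held DMSO_siNT 4-2V, the knockdown difference was 0.43 and not called (edgeR adjusted p = 0.731). Between VM libraries, in a fit with a level for each group and set letter, it was 1.76 ± 0.42 (adjusted p = 0.0142).

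The antisense gene IGF2-AS overlaps IGF2 on the opposite strand, and DMSO_siNT libraries held 0 to 1 of its counts, 4OHT_siNT libraries 1 to 5 and knockdown libraries 3 to 24. The strand setting of the counting is not stated in the sources used here, so reads of IGF2 and IGF2-AS cannot be told apart. The read-through gene INS-IGF2 and the neighboring non-coding gene H19 had 0 counts in all 18 libraries.

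IGF1, the growth hormone-dependent ligand, was close to undetected in these fibroblasts. It had 0 to 6 counts per library and 17 in all in DMSO_siNT, 3 counts in a lone 4OHT_siNT library and 0 elsewhere in that group, and 0 counts in all 6 knockdown libraries. Of the 17, 6 came from DMSO_siNT 4-2V, and DMSO_siNT 2-2V and 4-3VM held 0. With the knockdown set at a floor of 3 counts over the group, DMSO_siNT was 5.93-fold higher, taking its 17 counts as exact. The lower limit of the exact 95% interval, which covers counting error only, was 4.31-fold. In a fit without the filter edgeR did not call the 4OHT difference (adjusted p = 0.0876 over 22201 genes). The same fit called the knockdown against DMSO_siNT (adjusted p = 0.0114).

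IGF1R, the receptor for both ligands, was at 32.2, 50.3 and 59.0 CPM (lowest, median, highest) in DMSO_siNT, 22.2, 27.7 and 32.5 CPM in 4OHT_siNT and 21.9, 25.3 and 26.9 CPM in the knockdown. Of the 4OHT_siNT libraries, 5 of 6 lay below all DMSO_siNT libraries, and the other, at 32.5 CPM, lay just above the lowest of them. IGF1R fell by 0.82 ± 0.14 on the log2 scale with 4OHT (edgeR adjusted p = 6.79e-05). The knockdown difference was −0.14 (95% interval −0.43 to 0.15, adjusted p = 0.588). With siRNA number 4 in both arms the 4OHT difference was −0.41 and not called (adjusted p = 0.108).

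Compared per length, as CPM per kilobase of annotated exon, IGFBP4 and IGFBP5 made up most of the IGFBP1 to IGFBP6 message in every library. IGFBP4 was at 924 ± 276 (SD, n = 6), 826 ± 40.7 and 779 ± 109 CPM per kilobase in DMSO_siNT, 4OHT_siNT and the knockdown. IGFBP5 was at 489 ± 147, 826 ± 144 and 334 ± 230 CPM per kilobase in the same order. IGFBP7 followed, at 246 ± 149, 211 ± 34.9 and 121 ± 43.4 CPM per kilobase. IGFBP6, IGFBP2 and IGFBP3 stood next in that order in each group, none above 89.9 CPM per kilobase on average, ahead of IGF1R and IGF2. Taking mean ± SD as the spread, IGFBP4 and IGFBP5 overlapped in 4OHT_siNT alone, IGFBP5 and IGFBP7 overlapped in DMSO_siNT and the knockdown, IGFBP6 and IGFBP2 overlapped in all groups, and IGFBP2 and IGFBP3 in DMSO_siNT and the knockdown. IGFBP7 and IGFBP6 overlapped in DMSO_siNT. IGF1R stood above IGF2 in DMSO_siNT and 4OHT_siNT, and in the knockdown the order was the other way, with overlapping spread. With the length of the longest transcript in place of all annotated exon, IGFBP3 stood above IGFBP2 in the knockdown. Their mean shares of the IGFBP1 to IGFBP6 sum were then 1.24% and 0.98%, with overlapping spread.

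**Figure D2:**
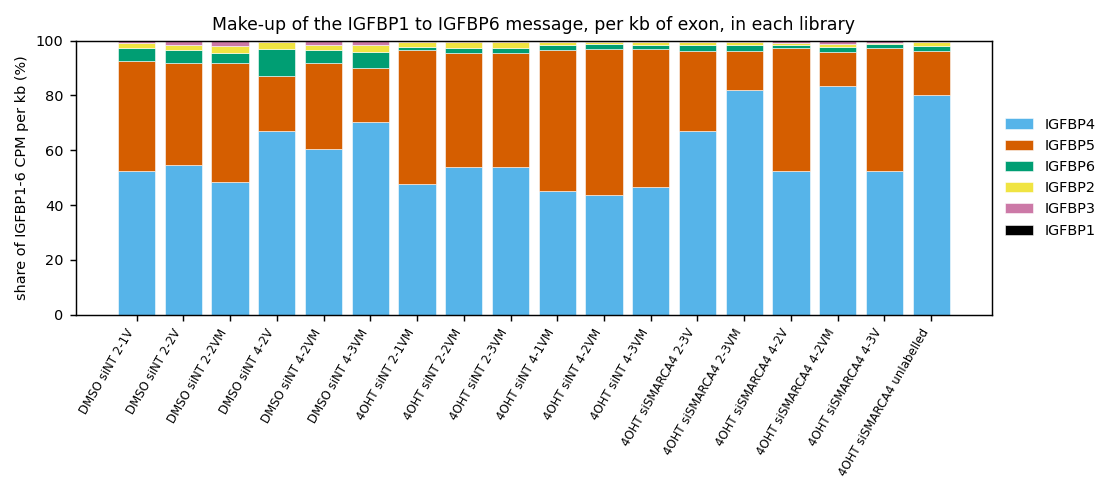
Share of each gene in the summed IGFBP1 to IGFBP6 level (CPM per kilobase of exon, in percent) in each of the 18 libraries. IGFBP5 takes 41.9% to 53.4% in 4OHT_siNT and 12.5% to 45.1% in the knockdown, where the VM and unlabelled libraries are the low ones.

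The share of IGFBP5 in that sum was 32.0% ± 10.2 (SD, n = 6) in DMSO_siNT, 48.0% ± 4.91 in 4OHT_siNT and 27.04% ± 15.1 in the knockdown. The share of IGFBP4 was 58.9% ± 8.64, 48.5% ± 4.32 and 69.6% ± 14.6. The summed level was 1559 ± 317, 1713 ± 137 and 1151 ± 236 CPM per kilobase. These shares describe message and not protein, and no test was made on them.

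IGFBP5, a matrix-associated binding protein, was at 1764, 3093 and 4470 CPM (lowest, median, highest) in DMSO_siNT, 4330, 5358 and 6797 CPM in 4OHT_siNT and 753, 1812 and 4291 CPM in 4OHT_siSMARCA4. All knockdown libraries lay below all 4OHT_siNT libraries, the highest by a narrow margin, and they reached both above and below the DMSO_siNT median. The log2 fold change in knockdown was −1.31 ± 0.36, or 2.47-fold lower (edgeR adjusted p = 0.0245). The 4OHT difference of 0.76 ± 0.36 was not called (adjusted p = 0.0819), but was with only the 2 groups in the fit (0.77, adjusted p = 0.0074). It was 0.27 with siRNA number 2 alone and not called (adjusted p = 0.476). Over 12 other settings it ran from 0.27 to 1.34 and was called in 4. Leaving out knockdown library 2-3VM or the unlabelled library ended the knockdown call (−1.16, adjusted p = 0.0548, and −1.17, adjusted p = 0.0568).

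Within the knockdown group IGFBP5 divided by set letters. The V libraries held 2625, 3355 and 4291 CPM, the VM libraries 753 and 931 CPM, and the unlabelled library 999 CPM. IGFBP5 was 2.01 ± 0.34 higher on the log2 scale in V than in VM libraries (edgeR adjusted p = 0.0384), in a fit in which 0.101% of 13887 genes were called. In DMSO_siNT the same difference was 0.16 ± 0.28 (adjusted p = 0.792), with 2849 to 3873 CPM in V and 1764 to 4470 CPM in VM libraries. SMARCA4 itself was 0.59 ± 0.17 higher in V than in VM knockdown libraries (adjusted p = 0.247), and the part of the residual SMARCA4 level in the IGFBP5 split was not tested. Between VM libraries in the same fit, the knockdown difference was −2.67 ± 0.33 (adjusted p = 0.000201), where 8.11% of genes were called, and the 4OHT difference was 0.86 ± 0.25 (adjusted p = 0.0122), where 37.7% were. Since 4OHT_siNT held VM libraries alone, no value within V sets can be given.

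**Figure D3:**
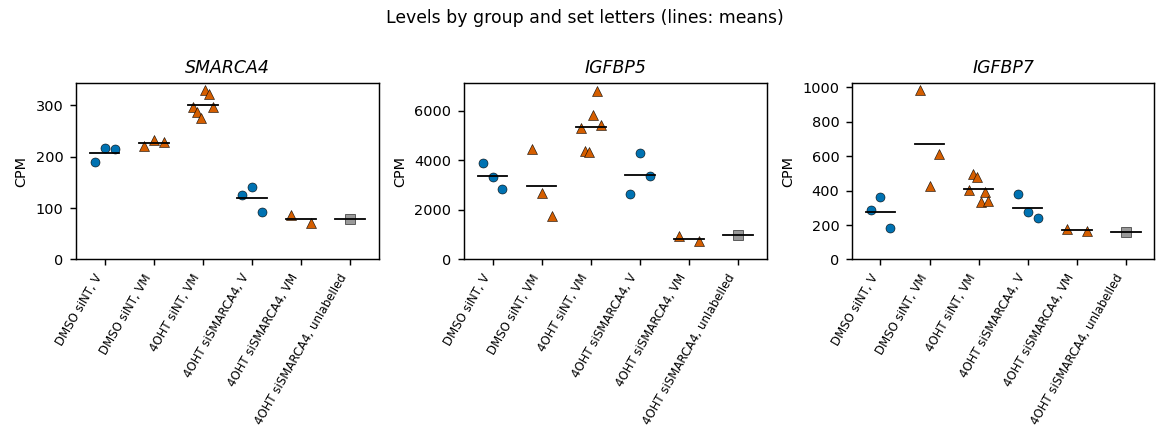
CPM of SMARCA4, IGFBP5 and IGFBP7 by group and set letters, with a point per library and lines at means. The VM and unlabelled knockdown libraries sit at 753 to 999 CPM of IGFBP5 and 162 to 180 CPM of IGFBP7, below the V knockdown libraries in both genes.

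IGFBP2, which binds IGF2 with preference, was at 115, 149 and 263 CPM (lowest, median, highest) in DMSO_siNT, 98.6, 118 and 163 CPM in 4OHT_siNT and 32.2, 50.6 and 75.3 CPM in the knockdown. The knockdown libraries lay below all others, V and VM alike, with 32.2 to 75.3 CPM in V and 37.1 to 54.2 CPM in VM and unlabelled libraries. IGFBP2 had a log2 fold change of −1.32 ± 0.22 in knockdown, or 2.50-fold lower (edgeR adjusted p = 0.000948), and of −1.46 ± 0.37 between VM libraries in the fit with set letters (adjusted p = 0.0206). Restricted to siRNA number 4 the value was −1.37 and was not called (adjusted p = 0.157), in a fit that called 4 genes in all. That fit held DMSO_siNT 4-2V, whose part in the missing calls was not tested. SMARCA4 siRNA 4 libraries held 32.2 to 48.9 CPM of IGFBP2, below the 98.6 to 101 CPM with control siRNA 4. The 4OHT difference was −0.42 ± 0.22 and was not called (adjusted p = 0.113), nor with 1 library left out (−0.50 to −0.25). Over 12 other settings it ran from −0.83 to −0.030 and was called in 1. The −0.030 came with siRNA number 2 alone and was not called (edgeR adjusted p = 0.902). Without DMSO_siNT 4-2V, the highest of its group, DMSO_siNT held 115 to 205 CPM. In 4OHT_siNT the libraries of control siRNA 2, at 135 to 163 CPM, lay above those of control siRNA 4, at 98.6 to 101 CPM, a difference of 0.57 ± 0.26 that was not called (adjusted p = 0.437).

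IGFBP3, the main carrier of IGFs in serum, lies on chromosome 7 from 45912245 to 45921874 on the minus strand, 18584 bases from IGFBP1. It was at 60.8, 93.2 and 139 CPM (lowest, median, highest) in DMSO_siNT, 20.5, 26.9 and 37.4 CPM in 4OHT_siNT and 21.8, 35.3 and 56.2 CPM in the knockdown. All senescent libraries, with or without knockdown, lay below all DMSO_siNT libraries. IGFBP3 had a log2 fold change of −1.70 ± 0.25 with 4OHT, or 3.25-fold lower (edgeR adjusted p = 9.7e-06), and of −1.29 ± 0.24 in the knockdown against DMSO_siNT (adjusted p = 0.000177). The knockdown difference of 0.41 ± 0.24 was not called (adjusted p = 0.308), and was −0.38 with siRNA number 2 alone and 1.08 with number 4 alone, neither called (adjusted p = 0.268 and 0.157). SMARCA4 siRNA 2 libraries held 21.8 to 30.3 CPM and SMARCA4 siRNA 4 libraries held 40.3 to 56.2 CPM. This difference between siRNAs, −0.93 ± 0.26, was not called (adjusted p = 0.384).

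IGFBP6, which also prefers IGF2, was at 71.4, 90.2 and 281 CPM (lowest, median, highest) in DMSO_siNT, 32.0, 38.3 and 41.3 CPM in 4OHT_siNT and 17.8, 23.9 and 40.6 CPM in the knockdown. Every 4OHT_siNT library lay below every DMSO_siNT library. The highest DMSO_siNT value belonged to library 4-2V, and the next highest was 108 CPM. IGFBP6 had a log2 fold change of −1.68 ± 0.28 with 4OHT (edgeR adjusted p = 4.1e-05) and of −1.24 without that library (adjusted p = 4.74e-07). The knockdown difference of −0.54 ± 0.27 was not called (adjusted p = 0.228). It was called when DMSO_siNT 4-2V, which is in neither arm, was left out (−0.55, adjusted p = 0.00944), among VM libraries alone (−0.64, adjusted p = 0.0106) and with only the 2 groups in the fit (−0.54, adjusted p = 0.0138).

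IGFBP7 was at 180, 395 and 982 CPM (lowest, median, highest) in DMSO_siNT, 335, 398 and 495 CPM in 4OHT_siNT and 162, 212 and 378 CPM in the knockdown. The 4OHT_siNT values lay inside the DMSO_siNT range, and the difference was −0.22 ± 0.31 (edgeR adjusted p = 0.566). DMSO_siNT itself ran from 180 to 365 CPM in V libraries and from 424 to 982 CPM in VM libraries. That difference, −1.29 ± 0.29 for V against VM, was not called in the fit of labelled libraries (adjusted p = 0.0651; 0.324% of genes were) and was when the unlabelled library was added to the VM libraries (−1.29, adjusted p = 0.0461). Between VM libraries in that fit, IGFBP7 was lower with 4OHT (−0.71 ± 0.24, adjusted p = 0.0288) and lower with knockdown (−1.24 ± 0.31, adjusted p = 0.0207). Over all sets the knockdown difference was −0.80 ± 0.31 and not called (adjusted p = 0.106). Leaving out DMSO_siNT 2-2VM turned the 4OHT difference to 0.13 and gave the knockdown difference a call (−0.81, adjusted p = 0.0462), as did leaving out DMSO_siNT 4-2V (−0.81, adjusted p = 0.0232) and fitting only the 2 groups (−0.80, adjusted p = 0.00492).

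IGFBP4, an inhibitory binding protein and the chief substrate of the protease PAPPA, was at 1668, 1745 and 3221 CPM (lowest, median, highest) in DMSO_siNT, 1717, 1834 and 1910 CPM in 4OHT_siNT and 1328, 1708 and 2075 CPM in the knockdown. The groups overlapped, and library DMSO_siNT 4-2V held the highest value. The 95% interval of the log2 fold change was −0.48 to 0.15 with 4OHT and −0.40 to 0.23 in knockdown, neither called (edgeR adjusted p = 0.381 and 0.782). Its sign with 4OHT turned to 0.020 without DMSO_siNT 4-2V.

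IGFBP1, a binding protein made mainly by the liver, was at the edge of detection, with 2 counts over the 6 DMSO_siNT libraries, 24 over 4OHT_siNT and 76 over the knockdown. Single libraries held 0 to 1, 2 to 5 and 2 to 27 counts. The 4OHT_siNT libraries all lay above the DMSO_siNT libraries, and the knockdown libraries overlapped 4OHT_siNT at their low end. The ratio of 4OHT_siNT to DMSO_siNT was 10.99 (95% exact interval 2.73 to 95.9) and that of the knockdown to 4OHT_siNT was 3.31 (2.07 to 5.47), intervals that cover counting error only. In a fit without the filter both differences were called by edgeR (adjusted p = 0.0033 and 0.0308 over 22201 genes).

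**Figure D4:**
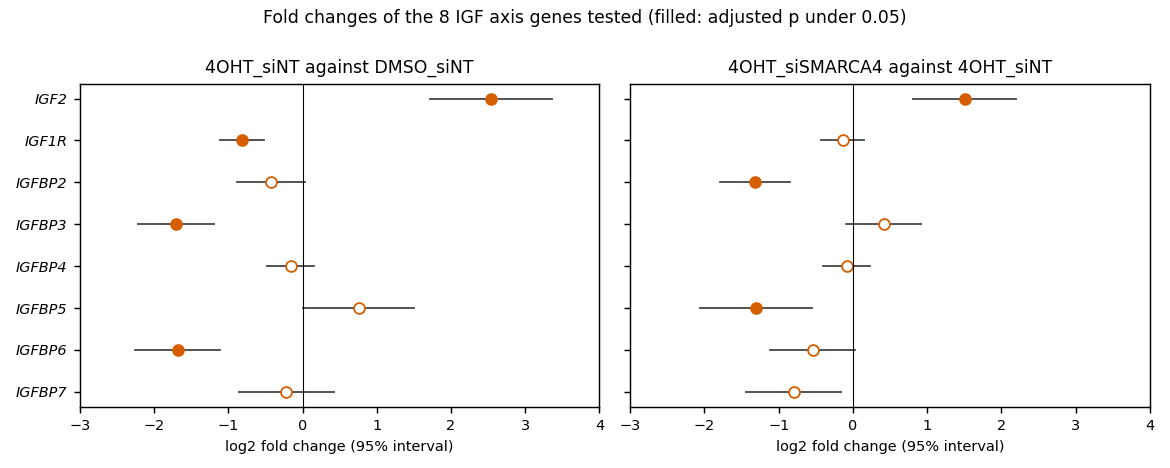
Log2 fold changes (points) with 95% intervals (lines) of the 8 members tested, for 4OHT_siNT against DMSO_siNT (left) and 4OHT_siSMARCA4 against 4OHT_siNT (right); filled points passed an adjusted p under 0.05. IGF2 is called to the right of 0 in both panels, and the other called genes are to the left of 0.

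Set against DMSO_siNT, the senescent cells with knockdown had IGF2 higher and IGF1R, IGFBP2, IGFBP3, IGFBP6 and IGFBP7 lower, 1 of 8 members called higher and 5 lower, where 50.5% of all genes were called, 23.3% higher and 27.3% lower. IGFBP6 had the lowest value (−2.22 ± 0.28, edgeR adjusted p = 1.66e-06), followed by IGFBP2 (−1.75 ± 0.23, adjusted p = 2.36e-06). With 1 library left out IGFBP6 ran from −2.39 to −1.79 and IGFBP2 from −1.90 to −1.58, called each time. IGFBP5, at −0.55 ± 0.36, and IGFBP4, at −0.25 ± 0.15, were not called (adjusted p = 0.208 and 0.183). For IGFBP5 this difference was 0.22 with siRNA number 4 alone (adjusted p = 0.763) and −1.35 with number 2 alone (adjusted p = 0.00247), and it was called without knockdown library 4-2V (−0.87, adjusted p = 0.0398). It was also called in a fit of VM libraries alone (−1.83, adjusted p = 0.000176). The V libraries held 2849 to 3873 CPM (mean 3353) in DMSO_siNT and 2625 to 4291 CPM (mean 3424) in the knockdown, which overlap.

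Beyond the 10 genes, 48 other genes of the pathway were read from a fixed list, of which 36 passed the filter. With 4OHT, 12 were higher and 10 lower, against 52.8% of all genes called, with a median log2 fold change of 0.24. With knockdown 3 were higher and 3 lower, against 10.6%, with a median of −0.17.

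Of the 5 tested proteases that cleave IGFBPs, 2 were higher and 2 lower with 4OHT, and of 2 tested inhibitors of PAPPA 1 was higher, where 52.8% of all genes were called. With knockdown 1 protease was higher and 2 lower, and neither inhibitor was called, where 10.6% of all genes were. STC1, stanniocalcin, a secreted inhibitor of PAPPA, was at 134 to 241 CPM in DMSO_siNT and 3124 to 3652 CPM in 4OHT_siNT, a rise of 4.20 ± 0.15 on the log2 scale (edgeR adjusted p = 1.15e-13), and at 3515 to 4269 CPM in the knockdown. PAPPA, which cleaves IGFBP4, was at 158 to 221 CPM in 4OHT_siNT and 320 to 546 CPM in the knockdown. PAPPA rose by 1.09 ± 0.22 with knockdown (adjusted p = 0.00388), and its 4OHT difference of 0.25 ± 0.22 was not called (adjusted p = 0.362) except among VM libraries alone (0.73, adjusted p = 0.000493) and without DMSO_siNT 4-2V (0.57, adjusted p = 0.00151).

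PAPPA2, a related protease that cleaves IGFBP3 and IGFBP5, had 5 counts in all over DMSO_siNT and 145 over 4OHT_siNT, a ratio of 26.6 (95% exact interval 11.1 to 83.0, counting error only). In the knockdown its libraries held 1 to 5 counts each, against 13 to 39 in 4OHT_siNT (log2 fold change −3.07 ± 0.48, edgeR adjusted p = 0.000495). HTRA1, a serine protease, was lower in both comparisons, with log2 fold changes of −0.55 ± 0.10 (4OHT) and −0.55 ± 0.10 (knockdown) (adjusted p = 0.000134 and 0.00175). Of the metalloproteases, ADAM12 rose by 1.85 ± 0.20 and ADAM9 fell by 0.65 ± 0.13 with 4OHT (adjusted p = 2.39e-07 and 0.00029).

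**Figure D5:**
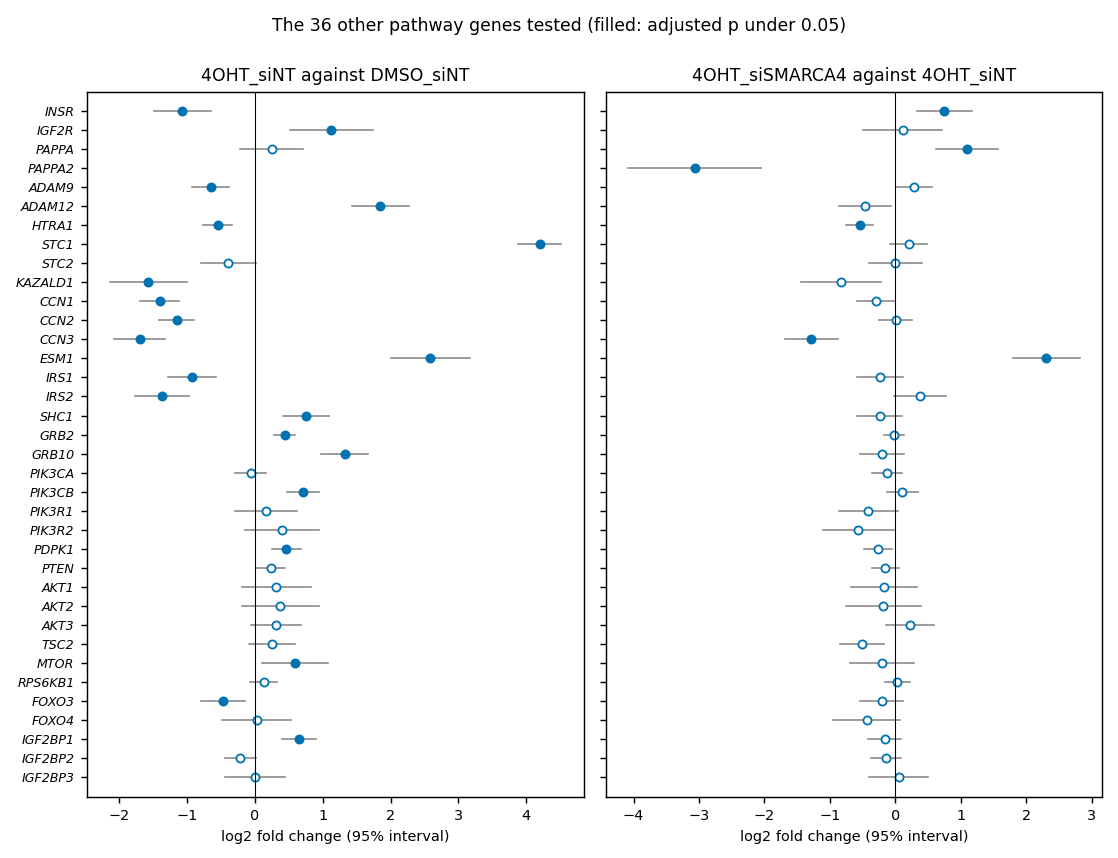
Log2 fold changes (points) with 95% intervals (lines) of the 36 other pathway genes tested in both comparisons, with filled points at an adjusted p under 0.05; PAPPA2 is left out of the left panel because no DMSO_siNT library exceeded 3 counts. Of the genes plotted, STC1, at 4.20, lies farthest right with 4OHT, and ESM1, at 2.31, with knockdown.

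All 5 tested genes related to the IGFBPs by their amino-terminal domain were called with 4OHT, where 52.8% of all genes were, and 2 of the 5 with knockdown, where 10.6% were. CCN1 (−1.40 ± 0.14), CCN2 (−1.16 ± 0.12), CCN3 (−1.70 ± 0.18) and KAZALD1 (−1.57 ± 0.27) were lower, and ESM1, endocan, was higher (2.59 ± 0.28; edgeR adjusted p of the 5 from 6.89e-08 to 8.1e-05). ESM1 held 6.80 to 16.8 CPM in 4OHT_siNT and 31.3 to 77.4 CPM in the knockdown, a rise of 2.31 ± 0.24 (adjusted p = 1.28e-05). CCN3 was lower there, at 1.99 to 3.22 CPM against 4.43 to 7.46 CPM (−1.29 ± 0.19, adjusted p = 0.000359).

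Among receptors, IGF2R, which clears IGF2 without signaling as a kinase, rose by 1.13 ± 0.29 with 4OHT (edgeR adjusted p = 0.00314), from 61.0 to 422 CPM in DMSO_siNT to 542 to 728 CPM. Without DMSO_siNT 4-2V, which held the 61.0 CPM, IGF2R ran from 201 to 422 CPM in DMSO_siNT. Its knockdown difference of 0.11 ± 0.29 was not called (adjusted p = 0.854). INSR, the insulin receptor, was at 5.32 to 9.33 CPM in DMSO_siNT, 2.51 to 4.69 CPM in 4OHT_siNT and 4.62 to 7.59 CPM in the knockdown. It fell by 1.08 ± 0.20 with 4OHT (adjusted p = 0.000164) and rose by 0.75 ± 0.20 with knockdown (adjusted p = 0.0215). The latter call was lost among VM libraries alone (0.59, adjusted p = 0.127) and without any of 4 single libraries, 4OHT_siNT 2-2VM, 2-3VM and 4-1VM and the unlabelled library (0.66 to 0.71, adjusted p from 0.0501 to 0.0626).

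The 5 tested receptor adaptors were all called with 4OHT, where 52.8% of all genes were. None was called with knockdown, where 10.6% of all genes were, and 0 had an unadjusted p under 0.05. The insulin receptor substrates IRS1 (−0.93 ± 0.17) and IRS2 (−1.37 ± 0.19) were lower, and SHC1 (0.75 ± 0.16), GRB2 (0.44 ± 0.074) and GRB10 (1.32 ± 0.16), an adaptor that dampens receptor signaling, were higher (edgeR adjusted p of the 5 from 1.44e-06 to 0.000777). Of the 14 genes of the PI3K-AKT branch tested, 3 were higher and 1 lower with 4OHT against 52.8% of all genes, and none was called with knockdown, against 10.6%, where 3 had an unadjusted p under 0.05. Of the 3 genes of the IGF2 mRNA-binding proteins, IGF2BP1 was higher with 4OHT (0.65 ± 0.12, adjusted p = 0.00014) and none was called with knockdown, with 0 at an unadjusted p under 0.05.

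The genes whose pattern lay nearest to each member over the 18 libraries were found by the root mean square difference of centered log2 CPM, searched over 11514 genes whose mean log2 CPM exceeded 1. For IGF2 these were NRROS and ABCA1, at 0.61 and 0.64, where IGF2 itself varied with an SD of 1.79. For IGFBP5 they were SH3BP1 and LRRC32 (0.38 and 0.39, own SD 0.91), for IGFBP2 TENT5A and DOK1 (0.38 and 0.40, own SD 0.83), and for IGFBP3 PDCD1LG2 and PCGF5 (0.28 and 0.30, own SD 0.83). For IGFBP6 they were NUDT1 and SH2D4A (0.27 and 0.27, own SD 0.98), for IGFBP7 TRIB2 and SPARC (0.32 and 0.33, own SD 0.67), for IGF1R ZSCAN26 and VCL (0.16 and 0.16, own SD 0.47), and for IGFBP4 TLE5 and SIL1 (0.11 and 0.11, own SD 0.24). The values share libraries and depth and carry no test.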

How the data were processed

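RNA was measured in 18 libraries of 3 groups. Libraries were strand-specific, from poly(A) RNA, and read single-end. The submitters' processing notes name STAR 2.7.8a, DESeq2 1.36.0 and hg38; the counting program, annotation and strand setting are not given in the sources used here. As deposited, the table holds the authors' raw counts for each gene symbol, with 36 columns for 18 libraries on 2 lanes. Lanes were summed, and all columns were used. Of 29 labelled samples, 17 matched a column; the others were not analysed here. The remaining library, whose column name gives SMARCA4 siRNA 2 and a VM set that matched no title, was kept in its group as the unlabelled library.

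Depth was 9657309 to 18039313 counts per library. Genes were filtered with filterByExpr (minimum count 10), which left 13136, and scaled by TMM. All 18 libraries entered 1 quasi-likelihood fit of edgeR 4.0.16 (R 4.3.3) without covariates, and p-values were adjusted by Benjamini-Hochberg over all genes tested. Errors of fold changes are SE. The labels do not say whether libraries came from separate cultures, so p-values measure the spread between these libraries. No 2 libraries of a group differed by less than sampling noise (chi-square per degree of freedom of 2.33 or more). Further fits compared siRNA numbers and set letters within groups. The edgeR and DESeq2 fits of 4OHT_siNT against DMSO_siNT were tested on data simulated without differences between sets. Of 13040 genes tested there, 100 were changed by 1 on the log2 scale and 100 by 2. At an adjusted p below 0.05, 6.15% of the edgeR calls and 12.8% of the DESeq2 calls were false. The contrast itself had 6935 calls, so these shares need not hold for it. The other fits were not tested in this way. Per-length levels used exon unions of GENCODE version 44.

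The members, the pathway list and the marker lists were chosen with earlier results of these data known. Named genes are the 10 members, SMARCA4, genes of the pathway list that a sentence needs, and the 2 genes nearest in pattern to each member; ESR1 and VWF were added for the checks. Alternatives covered scaling, DESeq2 1.42.0, the filter, a set block, VM sets, groups in the fit, summed or single siRNAs, the threshold, exon length and leaving out each library; those that use the unlabelled library as VM were chosen after seeing the data.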

Additional observations from a re-analysis of the deposited data

Results flagged for a closer look

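Of 24 sets of 6 values, the 8 members tested in 3 groups, 1 held a value far from the other 5 by Dixon's criterion on log2 CPM, where chance gives about 1.2. IGFBP6 in DMSO_siNT was highest in library 4-2V, at 281 CPM, with a gap of 0.699 of the range of the group. The same library had the lowest ESR1 level and the lowest depth, whose part in the IGFBP6 value was not tested. The effect of 4OHT did not pass the test of a difference between control siRNAs 2 and 4 for any member, in a fit where edgeR called 0 of 13659 genes. IGF2 (−1.96 ± 0.54, adjusted p = 0.102) and IGF1R (−0.71 ± 0.23, adjusted p = 0.114) came nearest.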

How the results depend on the processing

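For the 8 members, the direction and the call held in 422 of 432 values with 1 library left out and in 255 of 285 under other settings. Non-calls that stayed so count as held. The 432 also take in values whose left-out library was in neither group compared. Each fit below was filtered anew, so its count of members called takes in any of the 10 genes that passed there. With SMARCA4 knockdown 3 members were called, and 0 with siRNA number 4 alone (where 4 genes in all were), 5 with the 2 groups fitted alone, 6 among VM libraries, 6 with the unlabelled library added to those (added after seeing the data), and 2 to 5 with 1 library left out, 2 without knockdown 2-3VM and 5 without DMSO_siNT 4-2V. With 4OHT 4 were called, and 7 among VM libraries with or without the unlabelled one. There 7285 of 13615 genes were called among VM libraries alone, and 7337 of 13384 with the unlabelled one. Of the 8 members, VM libraries alone called IGF2, IGF1R, IGFBP3, IGFBP5, IGFBP6 and IGFBP7 with 4OHT. With knockdown they called IGF2, IGFBP2, IGFBP5, IGFBP6 and IGFBP7 of the 8, where 2858 of 13615 genes were called. Between set letters 1 was called, and 2 with the unlabelled library put with VM. Direction turned with siRNA number 2 alone for IGFBP4 (0.14 with 4OHT, 0.13 for knockdown against DMSO_siNT) and IGFBP3 (−0.38 with knockdown), with number 4 alone for IGFBP5 (0.22 for knockdown against DMSO_siNT), and with 4OHT when 1 library was left out for IGFBP4 (−0.21 to 0.020) and IGFBP7 (−0.38 to 0.13). The cause was not tested. Summing the siRNAs of a set ended the knockdown call of IGFBP5 (−1.42, edgeR adjusted p = 0.0691), as did a threshold of 0.01. Over all genes, 1397 were called with knockdown, against 2858 among VM libraries, 4064 with the unlabelled one, 3405 with 2 groups, 3429 and 4 with siRNA numbers 2 and 4, 595 at 0.01, 923 without the unlabelled library, 931 without knockdown 2-3VM and 3269 without DMSO_siNT 4-2V. Knockdown against DMSO_siNT gave 6635 and, with number 4, 4119. IGF1, IGFBP1 and IGF2 in DMSO_siNT are limited by depth.

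Set names were not taken to pair the libraries, since not every correlation of same-set deviations exceeded 0.1. The 3 of set 3VM did (0.13 to 0.27), and the other 4, of sets 2V and 2VM, were below 0 (−0.23 to −0.038). The lowest, of set 2V, rests in part on DMSO_siNT 4-2V, and these values do not settle whether sets pair the libraries. The fit with the set name as a block also left out the unlabelled library. There 0 members were called with knockdown (IGF2 1.66, IGFBP2 −1.53 and IGFBP5 −2.03, with edgeR adjusted p = 0.0886, 0.051 and 0.051). Over all genes 236 were called with knockdown and 4356 with 4OHT (6935 in the main fit). Leaving out the unlabelled library without a block gave 923 and 6885, and also ended the IGFBP5 knockdown call. With the block IGFBP5 gained a call with 4OHT (1.24, adjusted p = 0.0224). Of the other pathway genes named, PAPPA (0.91, adjusted p = 0.128), PAPPA2 (−2.81, adjusted p = 0.110) and INSR (0.52, adjusted p = 0.416) lost their knockdown calls and IGF2R its 4OHT call (1.15, adjusted p = 0.0515).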
